A study of Mus musculus with 2 samples.

Results

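The complement genes described here are 9 of the 55386 features counted in each library, and were followed through the immune cells of the mouse aortic adventitia. They were chosen by symbol, with earlier results of these data known. These are *C1qa*, *C1qb* and *C1qc* (the 3 chains of C1q), *C4b*, *C3*, *Cfb* (factor B), *Cfp* (properdin), and the anaphylatoxin receptors *C3ar1* and *C5ar1*. All 9 were found in both libraries. CD45+ cells had been sorted from the aortic adventitia of RankCreRosa26eYFP mice aged 16 weeks, either untreated (steady state, 3 animals pooled) or given angiotensin II (AngII) at 1.8 µg per kg and minute for 10 days (2 animals pooled). AngII came from an osmotic pump implanted under the skin in anaesthesia, and no pump is described for the steady state animals. In both groups Cre made from the *Rank* gene switches on a yellow fluorescent reporter for good, so that cells which once made *Rank*, and their progeny, can be followed by the reporter transcript (*Yfp*). Each condition has 1 droplet library, so no value has a replicate, no test between conditions was possible, and a difference between the libraries cannot be told apart from a difference between these pools of animals. It also cannot be told apart from an effect of pump surgery or of the preparation of each library.

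Complement is a set of plasma proteins that tag and lyse targets and call in leukocytes. C1q opens the classical pathway by binding antibody or dying cells, C4 carries that signal on, and both arrive at C3, whose cleavage fragments coat the target. Factor B and properdin form and stabilise the enzyme of the alternative pathway, which amplifies C3 cleavage. The small fragments C3a and C5a act through C3ar1 and C5ar1. Liver makes most circulating components, whereas tissue macrophages are the main source of C1q.

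The steady state library kept 306 of 346 barcodes after filtering, with a median of 9105 UMIs (unique molecular identifiers, 1 for each captured transcript), and the AngII library kept 4198 of 4419, with a median of 1092. No barcode was shared. Cells were sorted into classes by counting detected marker genes, none of them a complement gene. The monocyte and macrophage lineage held 158 cells at steady state and 2010 on AngII, and no cell of either library was gated as fibroblast or vessel wall. Resident macrophages (*Lyve1*, *Folr2*, *Cbr2*, *Cd163*, *Pf4* and *Stab1*) numbered 114 and 563, and all 6 of these markers were detected in both libraries. The AngII gates were looser, with 274 of the 563 resident cells at or within 1 marker of a gate's limit against 8 of the 114. At steady state the remaining macrophages, called other macrophages, comprised 10 type-2 macrophages, 10 classical and 13 nonclassical monocytes and 11 cells of no single subset ("unresolved"). On AngII they comprised 309 type-2 and 199 reparative macrophages, 281 classical and 32 nonclassical monocytes and 626 unresolved cells. Levels are CPM, a gene's UMIs over all cells of a class scaled to 1 common total, so that classes of unequal size and depth can be set side by side. Classes under 20 cells are given as counts. All intervals are 95% intervals for counting error and hold nothing of the spread between animals. Those of levels and ratios treat UMIs as independent and hold nothing of the spread between cells either. B and T cells were taken as the background for RNA released from other cells.

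The 3 C1q genes lie side by side on the minus strand of chromosome 4 in mouse genome build GRCm38, within 18675 bases. *C1qb* (ENSMUSG00000036905.8) spans 136880129 to 136886187, *C1qc* (ENSMUSG00000036896.5) 136889804 to 136893065 and *C1qa* (ENSMUSG00000036887.5) 136895917 to 136898803, with gaps of 3616 and 2851 bases between them. Because the 3 chains varied together over the cell classes, the sequences just before the starts of *C1qb* and *C1qc* are shown, from RefSeq on GRCm38.p6, where 6 of the 9 members matched an entry. They read 5′ to 3′ on the minus strand, from chr4:136886201-136886450 and chr4:136893066-136893164, and stop short of the annotated transcripts. Capitals mark AGGAAGT, the core bound by PU.1 and other ETS factors, on either strand, and TGCTGA, a motif of the MAF family.
C1qb: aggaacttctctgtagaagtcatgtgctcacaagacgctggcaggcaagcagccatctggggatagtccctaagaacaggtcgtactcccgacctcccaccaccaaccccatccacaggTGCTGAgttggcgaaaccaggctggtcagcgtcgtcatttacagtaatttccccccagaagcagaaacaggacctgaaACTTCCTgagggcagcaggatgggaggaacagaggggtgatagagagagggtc
C1qc: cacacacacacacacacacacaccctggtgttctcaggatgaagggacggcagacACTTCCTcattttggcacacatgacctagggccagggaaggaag
Searched on both strands in the 250 bases before each RefSeq start, AGGAAGT occurred once for *C1qb*, once for *C1qc* and 2 times for *C5ar1*, and was absent for *C3*, *C3ar1* and *Cfp*. It occurred in 7.69% of 32851 promoters. TGCTGA, held by 16.1% of promoters, occurred for *C1qb*, *C3*, *C3ar1* and *C5ar1*. The C/EBP motif TTNNGCAA (9.56%) was found for *C3* alone among the 6 members searched, and the interferon-stimulated response element (2.98%) for none. These are matches of letters in a window and say nothing of binding.

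C1q gave more UMIs than any other member, and at steady state most of them were in resident macrophages. *C1qa* stood at 5772 CPM in resident macrophages (interval 5639 to 5908), *C1qb* at 4987 CPM (4863 to 5113) and *C1qc* at 4475 CPM (4357 to 4595). At least 1 *C1qc* UMI was found in all 114 resident cells, and none of them lacked C1q altogether. Summed over the 3 chains, resident macrophages held 15234 CPM and the other macrophages 3888 CPM, a ratio of 3.92 (3.78 to 4.07). Of all C1q UMIs in the library, 81.0% were in resident macrophages. After each cell was thinned to 1000 UMIs, resident cells held a median of 15 C1q UMIs (quartiles 11 and 19, range 1 to 36) and the other macrophages a median of 0 (upper quartile 5.25, highest 16).

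The other macrophages were far from uniform. The 11 unresolved cells held 1888 C1q UMIs among 330699 in all, and 10 of them carried the marker *Yfp*. The 10 type-2 macrophages held 1463 among 270117. The 10 classical monocytes held 27 among 138163, of which the *C1qa* and *C1qc* UMIs (16 and 8) came from 1 cell, and the 13 nonclassical monocytes held 5 among 131186. Of the type-2 UMIs 31.4% were in 1 cell and 90.6% in 5 cells, and 6 of the 10 cells held *C1qa*. C1q was thus scarce in steady state monocytes, and in the type-2 gate it rested on few cells. The size of the resident-to-other ratio turned on which of these cells were counted: it was 9.85 without cells that also held 2 or more markers of another lineage (11 other macrophages left) and 22.9 with clusters in place of gates. Clusters were named by their most frequent gate. A cluster of 44 cells took the name cDC2 with no cDC2 marker and 4 type-2 markers among its 10 leading genes. These also included the fibroblast marker *Mgp*, the vessel wall markers *Tagln* and *Acta2* and the cDC1 marker *Naaa*. All 10 type-2 macrophages and 6 unresolved cells fell in this cluster. The other macrophages by cluster were therefore 28 cells of a monocyte cluster, and 195 of their 201 C1q UMIs were in 2 unresolved cells. The cluster taken as resident (131 cells) had 4 mast cell and 3 resident macrophage markers among its leading genes.

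The steady state background was carried by single cells. In B and T cells at steady state *C1qa* stood at 198 CPM, but 65 of the 69 UMIs in T cells and 70 of the 73 in B cells lay in 1 cell each. Thinned to 1000 UMIs, 93.5% of these lymphocytes held no C1q UMI. On AngII the lymphocyte level of *C1qa* was 123 CPM and was spread out, with at least 1 UMI in 133 of 440 cells and at most 25 in 1 cell.

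On AngII the classes fell into a graded order for C1q. Resident macrophages remained highest, with *C1qa* at 4922 CPM, *C1qb* at 5264 CPM and *C1qc* at 3166 CPM. For *C1qa*, unresolved macrophages (3086 CPM), type-2 macrophages (2204) and reparative macrophages (2008) followed, then nonclassical monocytes (1498), classical monocytes (839) and neutrophils (760.3). B cells (192 CPM, interval 156 to 234) and cDC1 (191, 170 to 214) came next and overlapped, and T cells (95.9), migratory DC (90.7) and cDC2 (59.3) were lowest, with each interval overlapping the next. The nonclassical value rested on few cells, as 1 of the 32 held 29.4% of its *C1qa* UMIs. The neutrophil gate was mixed. Of its 360 cells 155 lay at or within 1 marker of a gate's limit, and 192 held 2 or more markers of another lineage. At least 2 monocyte and macrophage markers were found in 48.1% of them. The same cells give the neutrophil levels of the other members. The summed C1q of resident over other macrophages was 2.23 (2.20 to 2.26), with 13352 against 5985 CPM. Resident cells now contributed 46.2% of all C1q UMIs and the other macrophages 44.6%. After thinning, the median was 11 C1q UMIs in resident, 8 in unresolved, 5 in type-2, 4 in reparative and 1 in classical monocyte cells, and the ranges overlapped throughout.

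**Figure D1:**
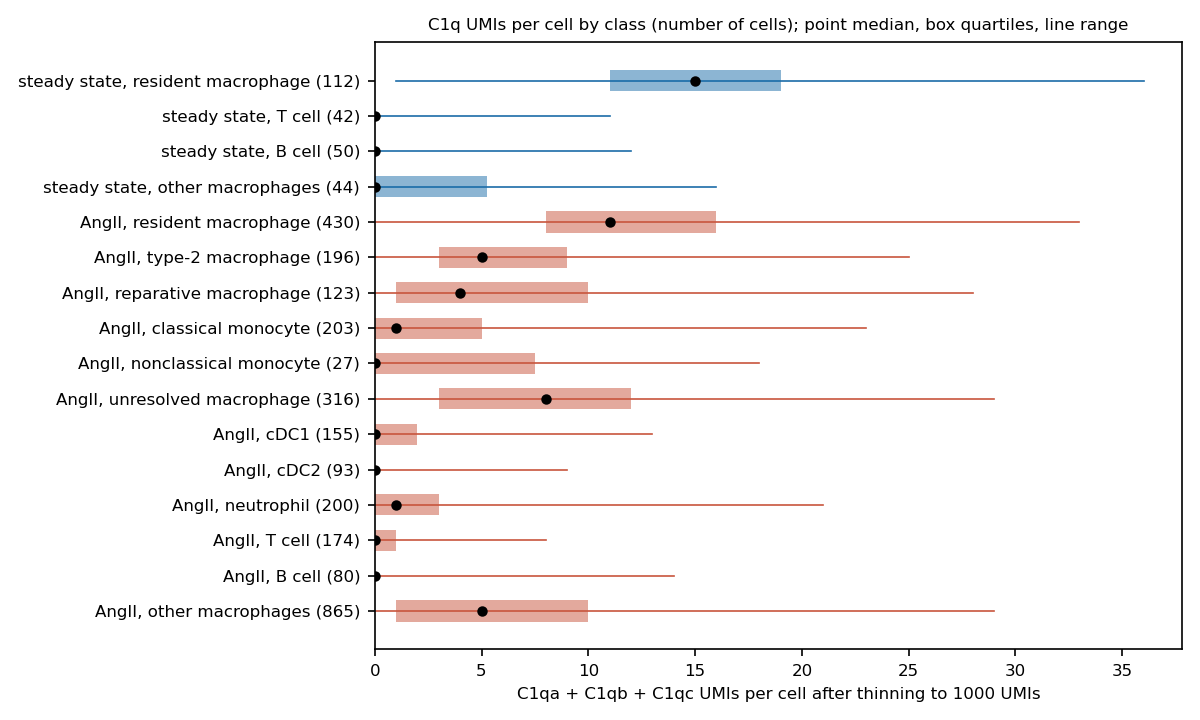
C1q UMIs per cell (x axis, summed over the 3 chains after thinning each cell to 1000 UMIs) by cell class and library (y axis, number of cells in parentheses). Points are medians, boxes quartiles and lines the full range. Steady state resident macrophages sit highest with a median of 15, and steady state T cells, B cells and other macrophages have a median of 0.

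Set against steady state, C1q was slightly lower in resident macrophages on AngII and higher in the other macrophages. The summed level in resident cells was 0.876 times that at steady state (0.862 to 0.892), and in the other macrophages 1.54 times (1.49 to 1.59). The chains did not move alike in resident cells: *C1qc* was at 0.707 times its steady state level (0.685 to 0.731), *C1qa* at 0.853 times (0.829 to 0.877), and *C1qb* at 1.06 times (1.03 to 1.09), a direction that 1 of 12 alternatives turned. The comparison of other macrophages set 1447 cells against 44 of a different make-up, and its ratio was 4.08 without cells holding markers of another lineage, 6.91 among *Yfp*- cells and 10.3 with clusters, whose steady state arm is the same 28 cells without type-2 macrophages.

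Cells gated as monocytes held more C1q on AngII than at steady state. Classical and nonclassical gates were pooled for this comparison, which was chosen after the values had been seen, because steady state held 23 such cells. They contained 16 *C1qa*, 7 *C1qb* and 9 *C1qc* UMIs, or 119 CPM of C1q in sum, and 26 of these 32 UMIs lay in 1 cell. The 313 AngII monocytes contained 2239, 3215 and 1530, or 2887 CPM, 24.3 times as much (17.2 to 35.6). At least 1 C1q UMI was present in 6 of 23 steady state and 238 of 313 AngII monocytes, although the AngII cells were shallower (median 4018 against 11277 UMIs). After thinning the shares were 13.0% and 51.3%. The share of B and T cells with C1q was also higher on AngII, with 22.6% at steady state and 58.6% on AngII (6.52% and 28.7% after thinning). Their level was 598 and 364 CPM, but 34.0 (21.6 to 51.0) and 330.3 CPM (304 to 358) without the B cell and the T cell richest in C1q in each library, a comparison added after the values had been seen. The part of released RNA in the monocyte level was not tested. Subtracting the level of B and T cells gave no value, because the steady state monocytes (119 CPM) lay below that level (598 CPM). Every alternative that gave a value kept the AngII monocytes higher. The range was from 3.81 times with clusters in place of gates (the same 28 cells at steady state) to 123 times without the cell with the most C1q UMIs in each arm. Of the AngII monocytes, 161 of 281 classical and 18 of 32 nonclassical cells lay at or within 1 marker of a gate's limit. Of the 5446 C1q UMIs in classical cells, 2689 lay in 52 cells of the cluster named unresolved macrophage. The 157 in the classical monocyte cluster held 1104. Of the 1538 in nonclassical cells, 1091 lay in 10 cells of that unresolved cluster and 399 in 1 cell of a resident cluster. The 13 nonclassical cells in the classical monocyte cluster held 11. The same gated cells give the monocyte levels of the other members.

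The balance of the 3 chains differed between classes. In steady state resident macrophages *C1qa* made up 37.9% of C1q UMIs (37.2 to 38.6), *C1qb* 32.7% and *C1qc* 29.4%, and the ratio of *C1qa* to *C1qb* was 1.16 (1.12 to 1.20). In AngII resident macrophages this ratio was 0.935 (0.915 to 0.955). It was lower again in other macrophage and monocyte classes of the same library, at 0.669 in type-2 macrophages (0.642 to 0.698), 0.697 in classical monocytes (0.655 to 0.741) and 0.739 in reparative macrophages (0.698 to 0.783), and lay between in unresolved cells (0.815, 0.789 to 0.843). It was not lower in neutrophils (0.972, 0.868 to 1.09), cDC1 (0.939, 0.798 to 1.11) or migratory DC (1.11, 0.566 to 2.17). In cDC2 it was 0.759 (0.542 to 1.06). All 4 of these intervals hold the resident value. Other macrophages at steady state had 0.779 (0.720 to 0.843). AngII B and T cells had 0.818, with a wide interval (0.682 to 0.979) that overlaps those of all these AngII classes. UMIs are counted from the 3′ end, so these ratios compare captured transcripts and not proteins, in which the chains are equal.

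**Figure D2:**
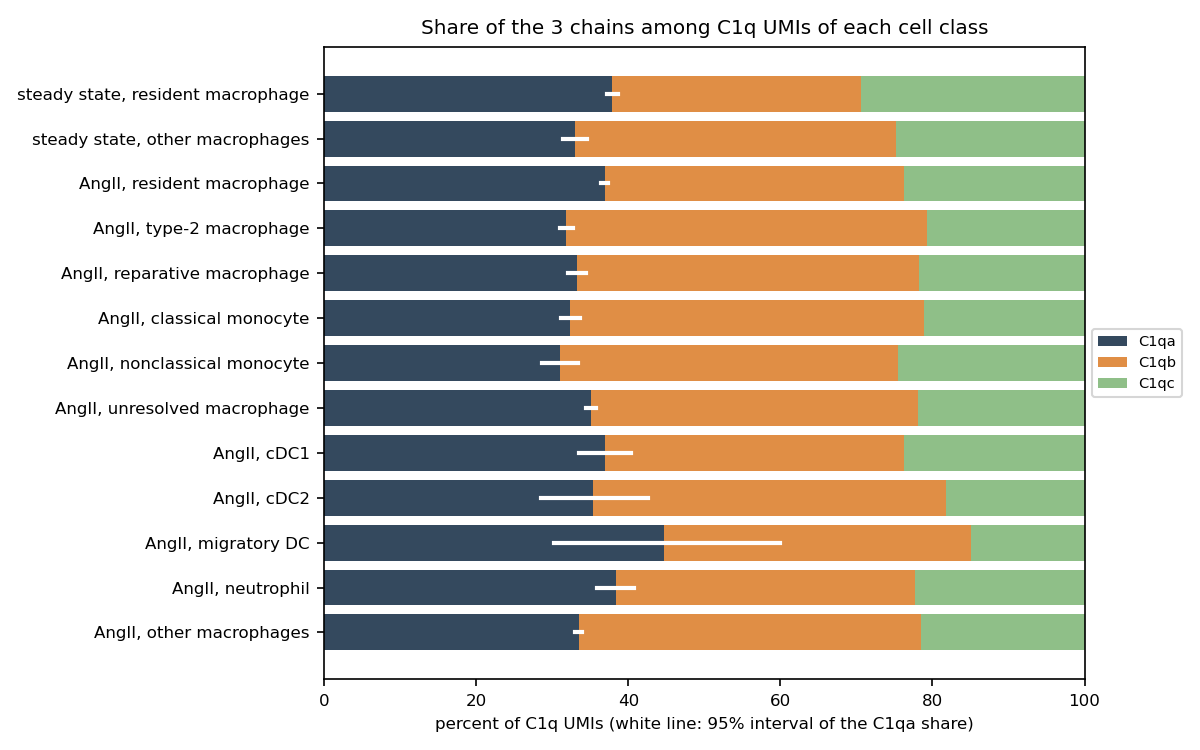
Percent of C1q UMIs (x axis) from *C1qa*, *C1qb* and *C1qc* in each cell class and library (y axis), with the 95% interval of the *C1qa* share in white. *C1qc* makes up 29.4% of the C1q UMIs in steady state resident macrophages and 20.7% in AngII type-2 macrophages.

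C4b acts just after C1q in the classical pathway, and its transcript had the highest resident-to-other ratio of the members measured in both libraries. *C4b* (ENSMUSG00000073418.4, chromosome 17, 34728380 to 34743882) stood at 493 CPM in resident macrophages at steady state (455 to 534) and at 71.3 CPM in the other macrophages (54.6 to 91.3), a ratio of 6.93 (5.33 to 9.15). Of the 62 UMIs in the other macrophages, 60 were in 5 of the 11 unresolved cells, and the 23 monocytes held none. On AngII it stood at 230.3 CPM in resident macrophages (214 to 247) and 34.6 CPM in the others (30.4 to 39.1), a ratio of 6.67 (5.77 to 7.72). Every other AngII class lay at or below 41.6 CPM, and the 42 UMIs of cDC1 included 31 in 1 cell. Resident macrophages on AngII thus carried 0.467 times the steady state level (0.419 to 0.520). The direction was the same in *Yfp*+ resident cells (0.505, 0.445 to 0.573) and in *Yfp*- resident cells (0.344, 0.274 to 0.436). In the other macrophages the ratio was 0.485, but it turned to 1.29 as a mean over cells, and to at least 1.71 and at least 4.15 where no *C4b* UMI was left at steady state, without cells holding markers of another lineage and with clusters. In the same comparison of resident cells their own 6 markers summed to 9547 CPM at steady state and 4702 CPM on AngII. Those of type-2 macrophages were also lower on AngII, at 7239 and 1546 CPM. Those of reparative macrophages were higher, at 24.4 and 1002 CPM (5 and 1 of the 6 at 0), as were those of classical monocytes, at 16.3 and 347 CPM. Those of nonclassical monocytes were at 30.1 and 36.3 CPM. The part of these markers in the *C4b* level was not tested. *C4a*, a near-identical copy 65209 bases away, was counted at 1 and 5 UMIs in the 2 libraries, and reads that fit both genes may have been lost or split.

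C3, the protein on which the pathways converge, had the opposite distribution. *C3* was rare in resident macrophages at steady state, with 5 UMIs in 3 of 114 cells (4.06 CPM, 1.32 to 9.48). The 10 classical monocytes held 33 UMIs in 7 cells and the 13 nonclassical monocytes 9 UMIs in 5 cells, while the 10 type-2 macrophages held none, and 14 UMIs were in the only migratory dendritic cell. The level in resident relative to other macrophages was 0.0752 (0.0234 to 0.188). On AngII, classical monocytes were again highest at 145 CPM (129 to 162), followed by neutrophils at 87.3 (67.9 to 110.5) and nonclassical monocytes at 66.1 (40.9 to 101), whose intervals overlap. Unresolved macrophages had 59.3 CPM, but 43 of their 124 *C3* UMIs lay in 1 cell. cDC2 held no *C3* UMI in 138 cells, which allows up to 2.70 CPM, and B and T cells held 3.84 CPM.

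Between conditions *C3* differed in resident macrophages. They held 33.3 CPM on AngII (27.4 to 40.1), with 111 UMIs in 63 of 563 cells, which was 8.20 times the steady state level (3.41 to 25.8) and between 4.56 and 13.0 times in 10 alternatives; in 2 others, which thinned the cells, no *C3* UMI was left at steady state and the bound was as low as 1.05. In *Yfp*+ resident cells the ratio was 8.51 (3.17 to 32.2). Pooled monocytes differed little, with 134 CPM on AngII and 156 CPM at steady state, a ratio of 0.861 whose interval (0.623 to 1.22) holds 1 and whose direction 3 of 11 alternatives turned. The resident-to-other ratio on AngII was 0.446 (0.361 to 0.548). The 6 markers of classical monocytes, all detected, summed to 347 CPM in AngII resident macrophages, against 16.3 CPM with 3 of the 6 at 0 at steady state, and their part in the *C3* level was not tested.

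Factor B was scarce. *Cfb* gave 9 UMIs in 9 of 114 resident macrophages at steady state (7.32 CPM, 3.35 to 13.9), 2 UMIs in 1 unresolved cell, and none in any other class. On AngII resident macrophages held 89 UMIs in 70 cells (26.7 CPM, 21.5 to 32.9), classical monocytes 22.8 CPM (16.8 to 30.3) and unresolved macrophages 24.4 CPM (18.2 to 32.1), 3 levels that overlap. Type-2 (11.5 CPM) and reparative macrophages (8.86 CPM) were lower. The ratio of AngII to steady state in resident macrophages was 3.65 (1.84 to 8.25). At this depth a lower level in the other steady state classes could not be measured. In AngII resident macrophages 32 cells held both *C4b* and *Cfb* UMIs and 14 both *C3* and *Cfb*, where independent detection would give 21.9 and 7.83, and deeper cells are more likely to hold any pair of genes.

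Properdin was abundant in macrophages and in 1 dendritic class. At steady state *Cfp*, whose protein stabilises the C3 convertase, stood at 467 CPM in resident macrophages (430 to 507), and all 10 type-2 macrophages (302 UMIs), all 11 unresolved macrophages (168 UMIs) and all 13 cDC2 (285 UMIs) held it, against 8 UMIs in the 23 monocytes. On AngII, type-2 macrophages (763 CPM, 722 to 807) and cDC2 (712 CPM, 663 to 763) were highest, with intervals that overlap, followed by resident macrophages (614 CPM, 588 to 641), unresolved (569) and reparative macrophages (526). cDC1 had 179 CPM and migratory DC 2 UMIs in 34 cells (8.64 CPM). B and T cells had 65.3 CPM. The resident-to-other ratio was 0.851 at steady state (0.752 to 0.963) and 1.13 on AngII (1.07 to 1.19), but 4 of 13 alternatives at steady state and 2 of 13 on AngII turned its direction. Monocytes carried 29.7 CPM at steady state and 379.9 CPM on AngII, a ratio of 12.8 (6.46 to 29.7). After thinning no steady state UMI was left, and the ratio was bounded only at 1.08.

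The 2 anaphylatoxin receptors were highest in resident macrophages, and on AngII neutrophils had a *C5ar1* level close to theirs. At steady state *C3ar1* stood at 402 CPM in resident (367 to 439) and 78.1 CPM in other macrophages (60.7 to 99.1), a ratio of 5.14 (3.98 to 6.72). *C5ar1* stood at 564 CPM (523 to 608) and 138 CPM (114 to 165), a ratio of 4.09 (3.37 to 5.01). The 23 monocytes held no *C3ar1* UMI, which allows up to 11.1 CPM, but 25 *C5ar1* UMIs in 10 cells (92.8 CPM). *C5ar1* was found in all 4 steady state neutrophils (11 UMIs), the cell type best known for responding to C5a. At least 1 UMI of both receptors was found in 96 of 114 resident macrophages.

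On AngII the 2 receptors were at most slightly different in resident macrophages and were higher in the others. In resident cells *C3ar1* was at 493 CPM, 1.23 times steady state (1.11 to 1.36), and *C5ar1* at 537 CPM, 0.951 times (0.871 to 1.04), a direction that 3 of 12 alternatives turned. In the other macrophages *C3ar1* was at 307 CPM, 3.92 times (3.08 to 5.07), and *C5ar1* at 319.9 CPM, 2.32 times (1.93 to 2.81). All 12 alternatives of each kept the direction. They were no lower than 3.31 times for *C3ar1* and between 1.19 and 2.87 times for *C5ar1*. At steady state 5 of the 44 other macrophages held 70.6% of the 68 *C3ar1* UMIs. The resident-to-other ratios on AngII were accordingly smaller, at 1.61 (1.51 to 1.72) for *C3ar1* and 1.68 (1.58 to 1.79) for *C5ar1*. AngII monocytes held 597 *C3ar1* UMIs (247 CPM), at least 22.2-fold higher than the 3 UMIs that a count of 0 allows in the steady state monocytes (at least 2.07-fold where cells were thinned first). Their *C5ar1* level was 288 CPM, 3.104 times that at steady state (2.08 to 4.83). In order of level, *C3ar1* was at 396 CPM in unresolved and 381 in reparative macrophages, which overlap, then 264 in classical monocytes and 234 in type-2 macrophages, and 130.3 in neutrophils (106 to 158). *C5ar1* was at 502 CPM in neutrophils (454 to 554), which overlaps the resident level (512 to 562). Both receptors were at or below 26.2 CPM in the 3 dendritic classes and at 25.8 and 30.7 CPM in B and T cells.

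**Figure D3:**
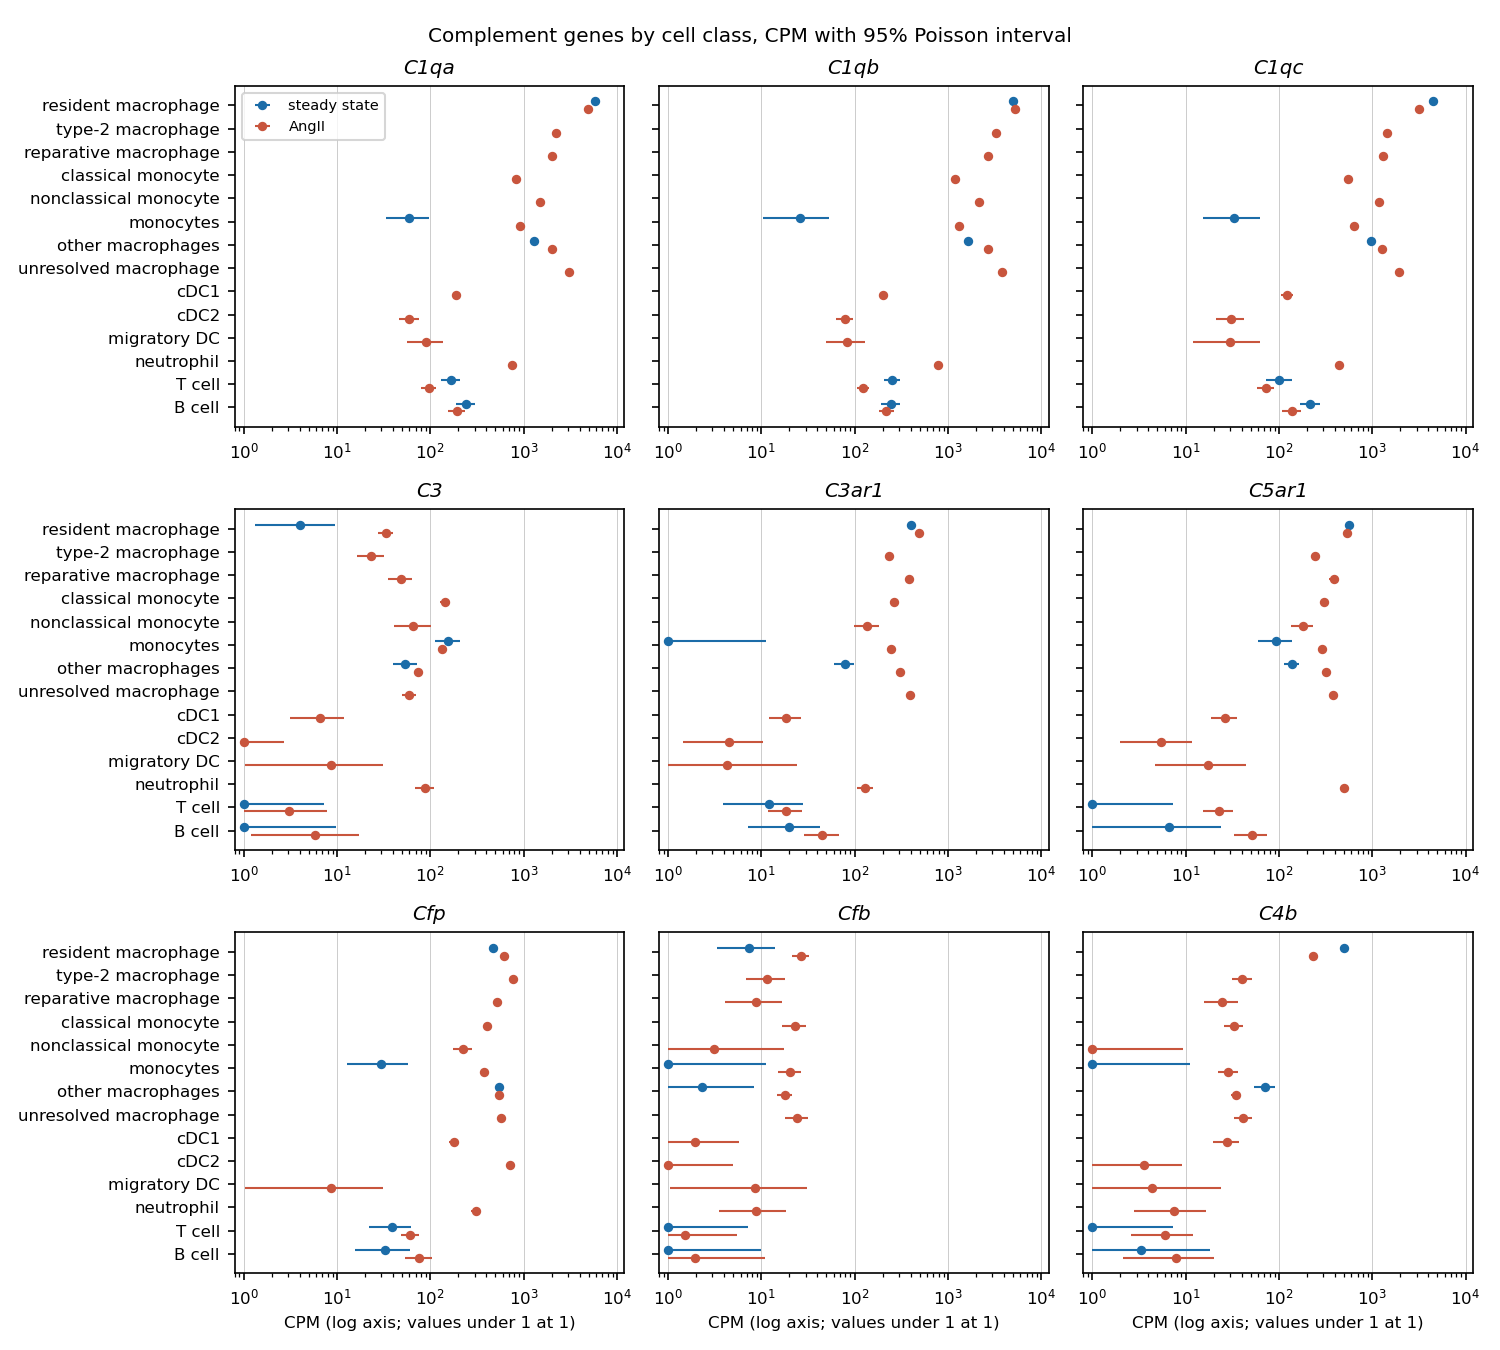
CPM of each member (x axis, log scale, 1 panel a gene) in cell classes of at least 20 cells (y axis), at steady state in blue and on AngII in red, with 95% Poisson intervals. Values of 0 are drawn at 1 with the limit that a count of 0 allows; steady state monocytes, pooled over both gates, lie left of AngII monocytes for all members but *C3*.

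Against the background of all genes, the members stood out in some of these comparisons and not in others. A gene was called when its CPM, with 20 CPM added, differed by at least 2 times, among genes with at least 20 UMIs. Between resident and other macrophages at steady state 6 of the 8 members tested were called higher, where 4.54% of 8291 genes were, and 1 (*C3*) was called lower, where 3.85% were. On AngII 3 of 9 were called higher (*C1qa*, *C1qc* and *C4b*; 0.826% of 11381 genes) and 0 lower (0.527%). Between AngII and steady state, resident macrophages had 1 of 9 called higher (*C3*, 1.52% of 10020 genes) and 1 lower (*C4b*, 1.81%). The other macrophages had 2 of 9 higher (*C3ar1* and *C5ar1*, 1.26% of 10796 genes) and 0 lower (1.07%). The median log2 ratio of the members was 1.995 and 0.71 in the 2 resident comparisons and 0.08 and 0.64 in the AngII comparisons of resident and other macrophages, while that of all genes lay between 0.01 and 0.07.

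**Figure D4:**
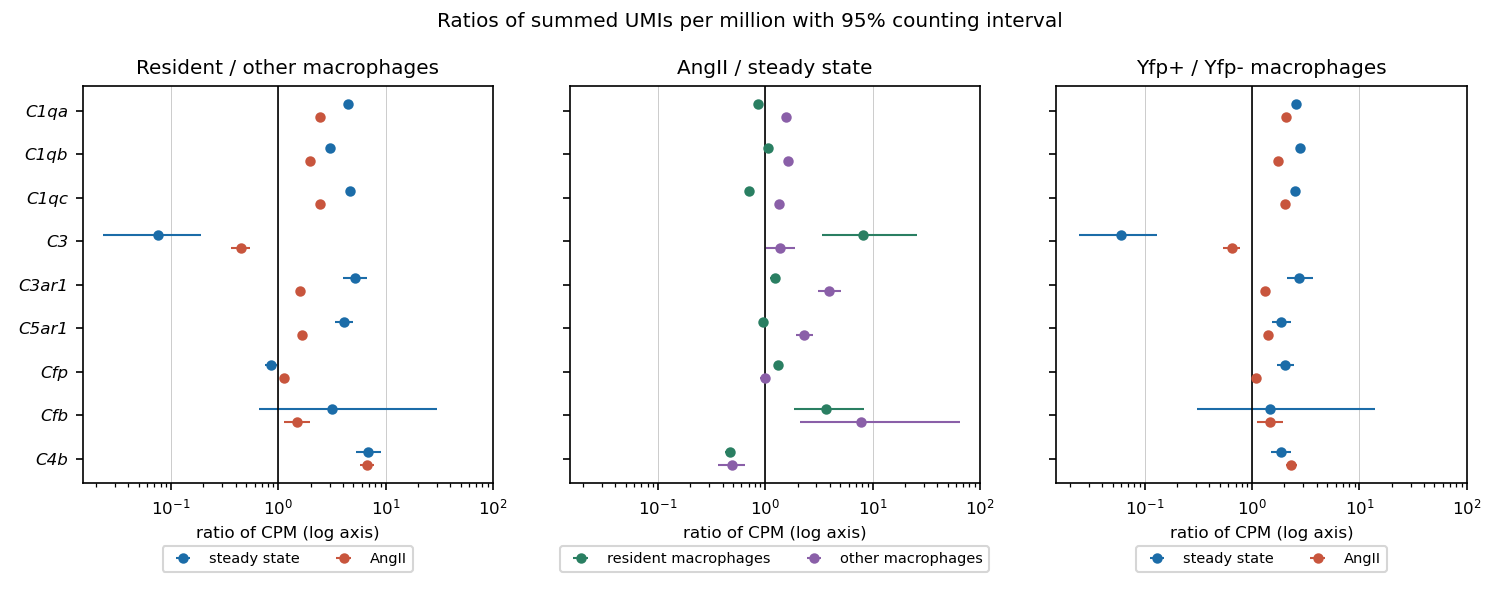
Ratio of CPM (x axis, log scale) for each member (y axis) between resident and other macrophages, between AngII and steady state, and between *Yfp*+ and *Yfp*- macrophages, with 95% counting intervals. All 3 C1q genes and *C4b* lie right of 1 and *C3* left of 1 in the first and the third panel in both libraries.

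*Yfp*+ macrophages held more C1q than *Yfp*- macrophages in both libraries. At steady state the summed C1q was 12438 CPM in 105 *Yfp*+ and 4752 CPM in 53 *Yfp*- macrophages, a ratio of 2.62 (2.51 to 2.73). On AngII it was 12262 CPM in 313 and 6380.4 CPM in 1697 cells, a ratio of 1.92 (1.90 to 1.95). *C3* had the opposite direction, at 0.0599 times in *Yfp*+ cells at steady state (0.0243 to 0.129) and 0.646 times on AngII (0.536 to 0.775), where 2 of 14 alternatives turned it. These macrophages include the monocyte gates. At steady state 0 of the 10 classical and 1 of the 13 nonclassical monocytes were *Yfp*+. Monocytes held 42 of the 52 *C3* UMIs of all macrophages there, and their part in these ratios was not tested. Of the 8 members tested at steady state, 4 were called higher in *Yfp*+ cells (the C1q genes and *C3ar1*; 1.42% of all genes) and 1 lower (*C3*, 2.68%). On AngII 3 of 9 were called higher (*C1qa*, *C1qc* and *C4b*; 0.272%) and 0 lower (0.281%). *Yfp*+ cells were deeper (median 6949 against 1231 UMIs on AngII), and a *Yfp* UMI is found more readily in a deep cell.

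The difference was smaller among resident macrophages alone. *Yfp* was found in 87 of 114 resident macrophages at steady state and in 175 of 563 on AngII. Within resident macrophages the *Yfp*+ to *Yfp*- ratio of C1q was 1.12 at steady state (1.07 to 1.17) and 1.22 on AngII (1.19 to 1.24). *C4b* had 0.748 (0.603 to 0.935) and 1.10 (0.945 to 1.27), and *Cfp* 1.31 (0.996 to 1.74) and 0.899 (0.823 to 0.983). Receptor ratios within resident cells lay between 0.919 and 1.25. *C1qc* was lower on AngII than at steady state in *Yfp*+ (0.750 times, 0.723 to 0.778) and in *Yfp*- resident cells (0.679 times, 0.625 to 0.738).

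The wider complement system was represented in part. Of 36 other complement genes, 9 reached 20 UMIs in the steady state comparison of resident with other macrophages and 14 on AngII. *Masp1*, *Mbl1*, *Mbl2*, *C4bp*, *C7* and *C8b* had no UMI in any kept cell. *Fcna* (ficolin A, a lectin pathway sensor) was at 324 CPM in resident and 23.0 CPM in other macrophages at steady state. In that comparison 4 of the 9 were called higher (*Fcna*, *Colec12*, *C5ar2* and *Vsig4*) and 2 lower (*Itgax* and *Itgb2*, chains of the complement receptor integrins). On AngII 2 of 14 were called higher (*Fcna* and *Vsig4*) and 1 lower (*Itgax*). In resident macrophages 2 of 14 were called lower on AngII than at steady state, namely *Fcna* at 0.310 times (0.267 to 0.360) and *Colec12* at 0.129 times (0.0924 to 0.177), and 1 was called higher, *Cd93* at 3.89 times (3.00 to 5.12). *Cd93* was also the 1 of 11 called in the other macrophages, at 2.40 times, with 0 lower. Between *Yfp*+ and *Yfp*- macrophages 1 of 9 was called higher (*Fcna*) and 1 lower (*Itgb2*) at steady state, and 0 of 14 either way on AngII.

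Across the 12 AngII classes with at least 20 cells, the members fell into different patterns. The summed C1q was most like *Adgre1* (Pearson r = 0.98), which is itself a gate marker, *Tmem37* (0.97) and *Gas7* (0.97), out of 7840 genes, and its correlation with *C3ar1* was 0.97. *C3ar1* was most like *Entpd7* and *Trem2*, and *C5ar1* most like *Fcgr3*, *Tom1* and *Hacd4*. *C3* was most like *Mgst1*, *Klra2* and *Cebpb* (0.95), *C4b* like *Fcna* (0.93), *Gja1* and *Pdgfc*, *Cfp* like *Hmox2*, *Ctns* and *Pigs*, and *Cfb* like *Serpinb8*, *Inppl1* and *Gnpda1*. *C3* and *C4b* were least alike among the members (0.23). The classes come from 1 library and differ in depth, so these values are descriptions over 12 points.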

How the data were processed

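Per the study's methods, the authors split the pooled reads by sample with Je. They used CellRanger (version 3.1.0) for alignment, on a GRCm38.p6 reference with GENCODE M24 genes plus eYFP, and deposited the UMI counts of each gene in each barcode without normalization. Cells needed 300 to 6500 detected genes and no more than 5% mitochondrial UMIs. A cell went to the lineage, out of 12 lists of 8 markers, with the most detected markers (at least 2, and more than any other), and a macrophage likewise to 1 of 5 subsets of 6 markers. Doublets were left in. Levels are summed UMIs scaled to CPM, with exact Poisson intervals, ratios have exact binomial intervals and shares Clopper-Pearson intervals, all at 95%. A count of 0 allows up to 3 UMIs. Genes named are the 9 members, 36 others of a complement list and, over AngII classes, the 3 genes most like each member with at least 100 UMIs, among genes with at least 200. Of these, 1 gene of the complement list and 1 gene most like a member are not reported here. The members, lists and gates were chosen with earlier results of these data known. Clusters for an alternative came from SCTransform (Seurat 5.3.0, sctransform 0.4.2, R 4.3.3) without complement genes, at 20 components and resolution 0.4. The ratios and intervals were computed with SciPy 1.17.1 (Python 3.11.15). They were tested on simulated Poisson counts with no spread between cells. That test cannot show how the intervals hold where few cells carry the UMIs. Depth per cell was a median of 9105 UMIs at steady state and 1092 on AngII, so shares were compared after thinning cells to 1000 UMIs, which left 303 and 2288 cells. Coordinates are from GENCODE M21 on GRCm38.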

Additional observations from a re-analysis of the deposited data

Results flagged for a closer look

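C1q lay on opposite sides of 1 in resident and other macrophages when AngII was set against steady state, with counting intervals that exclude 1. The summed level was 0.876 times in resident and 1.54 times in other macrophages, that of *C1qa* 0.853 and 1.56 times, and that of *C1qc* 0.707 and 1.34 times. *Cfp* in resident relative to other macrophages was 0.851 at steady state and 1.13 on AngII, also on opposite sides of 1. Each value comes from 1 library a condition, so these differences were not tested.

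The 911 AngII cells that no gate took, which enter no comparison, held every member above the level of B and T cells. Their C1q was 3003 CPM against 364, with *C1qa* at 986 against 123, *C1qb* at 1372 against 150.3 and *C1qc* at 645 against 90.5. *C3* was at 34.1 CPM against 3.84, *Cfb* at 9.21 against 1.65, *Cfp* at 411 against 65.3 and *C4b* at 30.3 against 6.58. The receptors *C3ar1* and *C5ar1* were at 160.3 and 188 CPM against 25.8 and 30.7. These cells had a median of 727 UMIs.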

How the results depend on the processing

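All 7 C1q ratios in macrophages and monocytes kept their direction under every alternative that gave a value, and the values here are their log2 ratios. As reported they were 1.97 and 1.16 (resident against other macrophages, steady state and AngII), -0.19 and 0.62 (AngII against steady state in resident and in other macrophages), 1.39 and 0.94 (*Yfp*+ against *Yfp*- macrophages, steady state and AngII) and 4.60 (AngII against steady state in monocytes). In that order they were 1.43, 0.82, -0.27, 0.34, 0.72, 0.81 and 2.98 with gates and counts after thinning to 1000 UMIs, 2.35, 0.97, -0.28, 1.11, 1.14, 0.81 and 2.90 with counts alone thinned, and 2.23, 0.95, -0.28, 0.999, 1.13, 0.72 and 3.29 as means over cells. Without macrophages holding 2 or more markers of another lineage, the values that moved beyond their counting interval were 3.30 and 1.09 for resident against other, 2.03 in other macrophages, 1.73 and 0.75 for *Yfp* and 3.30 in monocytes. With clusters in place of gates they were 4.52 and 1.04, -0.12 and 3.36, 1.81 for *Yfp* at steady state and 1.93 in monocytes, where the steady state clusters leave all 10 type-2 macrophages out of the macrophages. With all barcodes they were 1.90 and 1.04 for resident against other, and 1.29 and 0.84 for *Yfp*. With the level of B and T cells subtracted they were 2.15 and 1.21, 0.77 in other macrophages, and 1.51 and 0.98 for *Yfp*. For monocytes the subtraction gave no value, because at steady state they lay below the level of B and T cells. That level itself, at -0.72 for AngII against steady state, turned to 3.28 without the richest B cell and T cell of each library. Without the cell with the most C1q UMIs in each arm they were 2.13 at steady state, 0.77 in other macrophages, 1.53 for *Yfp* at steady state and 6.94 in monocytes. A lead of 2 markers gave 1.004 on AngII, -0.16 in resident and 0.84 in other macrophages, and 6.38 in monocytes. Resident against other was 1.91 and 1.12 without ribosomal protein and mitochondrial genes, 2.46 and 1.47 without unresolved cells, and on AngII 1.11 with 3 markers for each gate, 1.19 with at least 1000 genes and 1.20 with at least 2000 UMIs. *Yfp* on AngII was 0.99 under either of these last limits. A call at 2 *Yfp* UMIs gave 0.86 and 0.88, and resident macrophages alone gave 0.16 and 0.28. Among *Yfp*+ cells alone AngII against steady state was -0.10 in resident macrophages and 3.73 in monocytes. That monocyte value rests on 1 *Yfp*+ cell at steady state, a nonclassical monocyte, so its size says little. Among *Yfp*- cells AngII against steady state was -0.23 in resident and 2.79 in other macrophages. The limit of 2000 UMIs, the richest lymphocytes, the *Yfp* subsets and the monocyte comparison were chosen after the data had been seen.

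Of 783 alternative values of single members, 742 kept their direction. *C4b* in other macrophages, at -1.04 for AngII against steady state, turned to 0.37 as a mean over cells, to at least 0.78 without cells holding markers of another lineage and to at least 2.05 with clusters. The causes of these movements were not tested. No paired analysis was possible because each condition has 1 library. Depth limits *Cfb* and *C3* most, since a resident class at steady state held 9 and 5 UMIs of them, and a count of 0 in the 23 steady state monocytes allows up to 11.1 CPM.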
